A study of Mus musculus with 12 samples.

Results

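The 10 genes described here encode regulators of RNA splicing in the heart: Rbm20, Rbm24, Mbnl1, Mbnl2, Celf1, Celf2, Rbfox1, Rbfox2, Ptbp1 and Srsf1. They were chosen by name, as 10 of the 23337 gene symbols that both count tables hold, and all 10 passed the filter on low counts in each of the 5 comparisons below. Their RNA was measured in cardiomyocytes (CMs) from mice, in 12 samples that form 4 groups of 3. KO animals were Srf-flox/flox and CTRL animals were Srf-flox/+, so a CTRL CM kept an intact copy of Srf, which encodes the transcription factor SRF, after Cre recombinase acted. All animals, CTRL included, received AAV9-cTNT-Cre, an adeno-associated virus in which the cardiac troponin T promoter drives Cre in CMs, and carried a fluorescent reporter that Cre switches on. Neonatal animals were injected at postnatal day (P) 1 and their CMs sorted at P14, and adult animals were injected at P60 and their CMs sorted at P90. The dose was low, so that Cre acted in a scattered minority of CMs, and fluorescent CMs were sorted from the heart apex after collagenase digestion. The strains were on a mixed genetic background. The design text calls the samples of a group biological replicates without saying whether hearts were pooled, so p-values below measure the spread between these samples.

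Splicing removes introns from a new transcript, and regulators of this kind bind short motifs in it and decide which exons are kept. RBM20 represses exons of titin and of other sarcomere and calcium-handling genes, and its mutations cause dilated cardiomyopathy. RBM24 promotes inclusion of many muscle exons. MBNL and CELF proteins act in opposition on a shared set of exons during postnatal heart development, and loss of free MBNL protein underlies myotonic dystrophy. RBFOX proteins bind UGCAUG in introns next to muscle and neuronal exons, PTBP1 holds such exons out of the transcript in other cell types, and SRSF1 is a member of the serine and arginine-rich (SR) family that promotes exon inclusion. The tables count reads per gene, so what follows describes how much RNA of each regulator was present, not how any exon was spliced.

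Promoter sequence is shown for Rbfox1 and Mbnl1, since one or the other had the smallest adjusted p-value of the members in every comparison that follows, and since each has more than 1 annotated start that a count per gene cannot separate. The sequences are the 250 bases before each start in RefSeq annotation of GRCm38.p6, 5′ to 3′ on the plus strand, and capitals mark CpG dinucleotides.
Rbfox1, upstream start, chr16:5884543-5884792: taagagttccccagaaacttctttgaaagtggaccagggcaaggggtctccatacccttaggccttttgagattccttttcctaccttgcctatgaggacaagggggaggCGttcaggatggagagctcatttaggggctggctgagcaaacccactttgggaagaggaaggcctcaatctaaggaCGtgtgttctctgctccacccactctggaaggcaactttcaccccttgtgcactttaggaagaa
Rbfox1, downstream start, chr16:7069585-7069834: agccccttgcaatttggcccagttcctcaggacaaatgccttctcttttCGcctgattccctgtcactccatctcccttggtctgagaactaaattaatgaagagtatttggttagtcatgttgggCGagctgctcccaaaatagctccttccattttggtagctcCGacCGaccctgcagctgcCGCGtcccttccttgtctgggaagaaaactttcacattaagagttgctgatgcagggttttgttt
Mbnl1, upstream start, chr3:60472580-60472829: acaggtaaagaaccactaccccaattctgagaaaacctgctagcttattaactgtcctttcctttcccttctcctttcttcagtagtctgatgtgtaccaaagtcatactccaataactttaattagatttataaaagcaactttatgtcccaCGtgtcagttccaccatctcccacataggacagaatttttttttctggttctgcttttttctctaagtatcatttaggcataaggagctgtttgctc
Mbnl1, downstream start, chr3:60500929-60501178: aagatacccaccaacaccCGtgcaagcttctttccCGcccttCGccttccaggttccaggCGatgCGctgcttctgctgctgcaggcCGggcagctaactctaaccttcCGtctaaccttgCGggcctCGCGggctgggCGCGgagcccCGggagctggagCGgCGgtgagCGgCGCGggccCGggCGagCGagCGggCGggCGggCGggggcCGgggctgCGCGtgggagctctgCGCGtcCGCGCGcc

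The upstream Rbfox1 window held 2 CpG dinucleotides and the downstream window held 6, against a median of 6 over the 32851 windows of the same length in the table. The Mbnl1 windows differed more, with 1 CpG upstream and 33 downstream, the latter more than in 96.0% of all windows. Windows were given for 8 of the 10 members, 14 in all, and none for Rbm20 and Rbfox2. A CArG box, the motif that SRF binds, was searched by its consensus on both strands in the 300 bases that run from 250 before to 50 after each start. It was found in 0 of the 14 windows of members and in 1.63% of all windows, which says only that these letters are not in the windows searched.

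The members are spread over 9 chromosomes in mm10. Rbfox1 is the longest, at 1527688 bases on the plus strand of chromosome 16 from 5884793 to 7412480, and Srsf1 the shortest, at 6087 bases on chromosome 11 from 88047671 to 88053757. Mbnl1 spans 60472830 to 60629748 on chromosome 3, Mbnl2 120275669 to 120431698 on chromosome 14, and Rbfox2 77078990 to 77307053 on chromosome 15. Counting used exons, which make up 2933 bases of Ptbp1 and 9517 bases of Celf2, the extremes among the members. Rbm20 lies on chromosome 19 from 53677306 to 53867080, Rbm24 on chromosome 13 from 46418300 to 46431099 and Ptbp1 on chromosome 10 from 79854605 to 79864433. Celf1 and Celf2 lie on chromosome 2, at 90940397 to 91019497 and 6539699 to 7396198. Exons of another gene overlapped those of Ptbp1 alone, by 178 bases for BC005764 and 117 bases for E130317F20Rik, which had at most 20 and 41 counts in any sample.

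Levels are given in CPM, counts scaled to a common library size, with library sizes adjusted by TMM factors that align the bulk of genes between libraries. Total counts per sample ranged from 9740389 to 23103460, and 3 counts correspond to 0.308 CPM in the smallest library, a limit from counting error only. The TMM factors were 1.124 to 1.19 in P14 KO and 0.895 to 1.03 in the other groups. All 8 CM markers were counted in every group, and their summed level lay between 66803 and 73453 CPM for P14 KO against 91908 and 101190 CPM for P14 CTRL, and between 80843 and 83488 CPM for P90 KO against 90573 and 98413 CPM for P90 CTRL. The sums in KO were below those in CTRL at both stages without overlap, while the median log2 fold change over the 8 markers was -0.39 at P14 and 0.09 at P90, where 0 of 8 were called. Markers of fibroblasts summed to 117 to 349 CPM at P14 and 52.1 to 73.4 at P90, and those of endothelial cells to 220 to 465 at P14 and 185 to 282 at P90. Smooth muscle and pericyte markers, which include targets of Srf, summed to 955 to 1419 CPM in P14 CTRL and 383 to 595 CPM in P14 KO. At P90 they summed to 276 to 420 CPM in CTRL and 200.4 to 210 CPM in KO. Leukocyte markers summed to at most 14.3 CPM, erythroid markers to at most 18.9 CPM and those of Schwann cells and neurons to at most 5.91 CPM. Y-linked genes summed to 3299 to 4756 counts in 1 sample each of P14 CTRL, P14 KO and P90 CTRL and to at most 2 counts in the other samples. Stage cannot be told apart from the table that holds it, nor from the time since the virus was given.

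Srf, the targeted gene, was examined first. It measured 64.0, 57.1 and 49.4 CPM in P14 CTRL and 32.1, 27.5 and 9.75 CPM in P14 KO. In the adult model it was 71.2, 59.1 and 81.1 CPM in CTRL and 32.9, 28.9 and 28.1 CPM in KO. Every KO sample was below every CTRL sample at its stage. The log2 fold change was -1.30 ± 0.36 (SE) at P14 and its adjusted p-value 0.0628 (edgeR quasi-likelihood test, adjusted over all genes tested, as throughout), which missed the threshold of 0.05. At P90 the log2 fold change was -1.23 ± 0.13 with an adjusted p-value of 0.00347. Over 15 fits the P14 value passed in 6, with adjusted p-values from 0.00216 by DESeq2 to 0.147, and the P90 value passed in 14, the call being lost in the fit of all 12 samples, at 0.1796.

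Among the members, RNA for Rbm24, Mbnl2 and Rbm20 was the most abundant and RNA for Rbfox1 and Ptbp1 the least, on a scale of CPM per kilobase of exon, which allows levels of different genes to be compared. In P14 CTRL the level of Rbm24 was 111 ± 40.7 CPM per kilobase (SD, n = 3), that of Mbnl2 70.4 ± 11.8 and that of Rbm20 55.5 ± 4.02. Mbnl1 followed at 31.4 ± 7.84, Srsf1 at 29.6 ± 8.44 and Celf1 at 22.9 ± 0.17. Below these lay Celf2 at 12.1 ± 1.8, Rbfox2 at 9.31 ± 0.24, Ptbp1 at 6.54 ± 1.09 and Rbfox1 at 3.76 ± 0.55. Rbm24 exceeded 95.7% of the genes kept for testing and Rbfox1 exceeded 40.2%. The ranges of Rbm24 and Mbnl2 overlapped, as did those of Mbnl1 and Srsf1, so the order within these pairs was not separated by the samples. In P14 KO Rbm20 stood above Mbnl2, with overlapping ranges, and Celf1 above Srsf1, again with overlap. At P90 Rbfox1 and Ptbp1 lay side by side, at 4.88 ± 0.49 and 4.69 ± 0.20 CPM per kilobase in CTRL and 4.03 ± 0.51 and 4.42 ± 0.91 in KO, and did not differ beyond their spread.

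**Figure D1:**
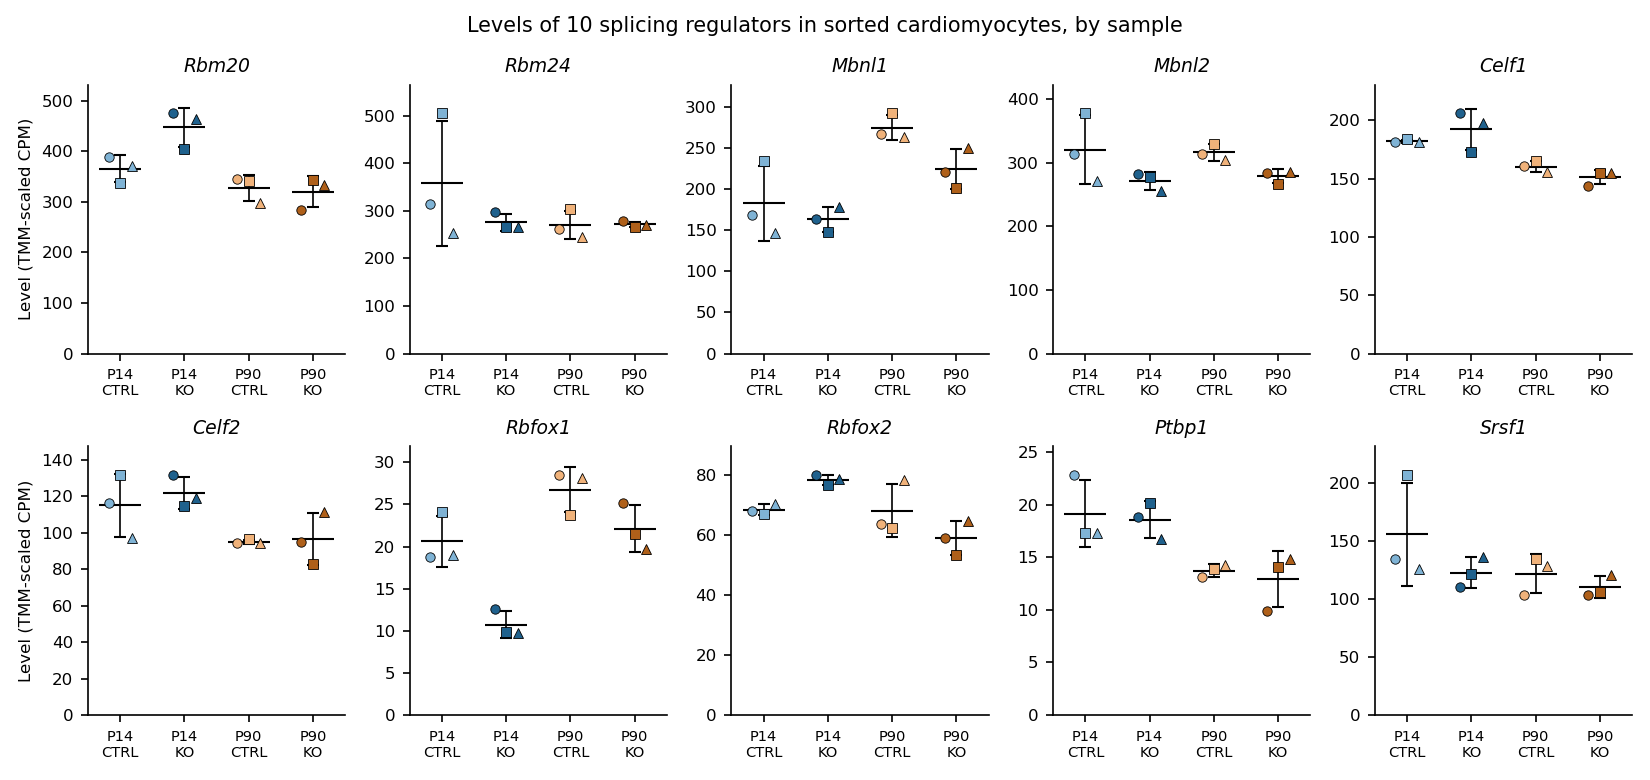
Level of each regulator in every sample, in CPM of TMM-scaled library sizes on axes that start at 0. Circles, squares and triangles are replicates 1, 2 and 3, and black lines give the mean ± SD of 3 samples. The P14 KO samples of Rbfox1 lie at 9.75 to 12.6 CPM, below the 18.7 to 24.1 CPM of P14 CTRL.

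To find out which regulators respond to loss of Srf in neonatal CMs, P14 KO was compared with P14 CTRL. Rbfox1 was down-regulated, to 52.0% of its CTRL mean, and it was the only member with an adjusted p-value under 0.05 by edgeR. Over all genes, 8.59% of the 12546 tested passed this threshold, so 1 of 10 members is a share near the background. The median log2 fold change was -0.11 over the members and 0.00 over all genes, and 4 of the 10 members and 50.2% of all genes had values above 0.

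Rbfox1 measured 18.7, 24.1 and 19.0 CPM in P14 CTRL and 12.6, 9.86 and 9.75 CPM in P14 KO. All KO samples lay below all CTRL samples. These levels rested on 325 to 482 counts in CTRL and 193 to 236 in KO. The log2 fold change was -0.95 ± 0.17 (SE), a 1.93-fold lower level in KO (edgeR, adjusted p-value 0.0176). DESeq2 gave an adjusted p-value of 9e-05 and the fit of all 12 samples 0.00142, but the edgeR value rose to 0.0820 without P14 KO replicate 2 and to 0.0818 without P14 KO replicate 3. The summed CM markers given above moved in the same direction between these groups, and their part in the Rbfox1 result was not tested. Fewer Rbfox1-expressing cells and less Rbfox1 RNA per cell cannot be told apart in these bulk samples.

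Its paralog Rbfox2 did not pass the test. Rbfox2 measured 67.8, 67.2 and 70.5 CPM in P14 CTRL and 80.1, 76.7 and 78.6 CPM in P14 KO. The groups did not overlap and KO was the higher, yet the log2 fold change of 0.19 ± 0.09 had an adjusted p-value of 0.232 by edgeR. Rbm20 measured 389, 337 and 371 CPM in CTRL and 475, 404 and 464 CPM in KO, also without overlap and higher in KO. Its log2 fold change was 0.29 ± 0.11 and its adjusted p-value 0.159. Lack of overlap between 3 and 3 samples was found for 3 of 10 members here and for 32.7% of all genes tested. With total counts in place of TMM factors, which puts the median log2 fold change of all genes in P14 KO at 0.22, Rbm20 and Rbfox2 passed the threshold as well.

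The remaining 7 members overlapped between P14 KO and CTRL and did not pass the test. Rbm24 measured 314, 505 and 254 CPM in CTRL and 297, 266 and 265 CPM in KO, so that a single CTRL sample stood above all others. Its log2 fold change was -0.38 ± 0.23 and became -0.04 without P14 CTRL replicate 2. Srsf1 was 156 ± 44.4 CPM in CTRL and 123 ± 13.3 CPM in KO, and its highest value, 207 CPM, came from the same CTRL library. Mbnl1 and Mbnl2 had log2 fold changes of -0.16 ± 0.18 and -0.24 ± 0.14. For Celf1 and Celf2 they were 0.07 ± 0.11 and 0.08 ± 0.13, and for Ptbp1 -0.05 ± 0.15. Adjusted p-values of these 7 members ranged from 0.305 to 0.886 by edgeR.

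The same question was then asked of adult CMs. In P90 KO against P90 CTRL, 0 of the 10 members passed the threshold by edgeR, by DESeq2 or in any other fit run, and 1 had an unadjusted p under 0.05, as did 16.2% of all genes. Over all genes, 46 of 11808 (0.39%) passed by edgeR, so few calls of any kind were made at this stage. Log2 fold changes of the members lay between -0.29 and 0.02, with a median of -0.11 against 0.01 over all genes, and 2 of 10 were above 0.

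Mbnl1 had the smallest p-value of the members at P90. It measured 267, 292 and 264 CPM in CTRL and 220, 201 and 250 CPM in KO. KO samples lay below CTRL samples without overlap, at 81.5% of the CTRL mean, and the log2 fold change of -0.29 ± 0.10 had an unadjusted p of 0.0174 and an adjusted p-value of 0.212 by edgeR. Mbnl2 was also lower in all KO samples, at 284, 267 and 286 CPM against 314, 330 and 305 CPM in CTRL, with a log2 fold change of -0.17 ± 0.09 and an adjusted p-value of 0.352. Celf1 was the third member without overlap, at 144 to 155 CPM in KO and 155 to 165 CPM in CTRL. Such separation, in either direction, was found for 21.6% of all genes tested. Genes induced by cell isolation, a list of 10, summed to 835 to 1444 CPM in P90 CTRL and 1750 to 2824 CPM in P90 KO without overlap, with a median log2 fold change of 1.05 and 1 of 10 called, and their part in the P90 values was not tested.

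Rbfox1 measured 28.5, 23.7 and 28.1 CPM in P90 CTRL and 25.1, 21.5 and 19.7 CPM in P90 KO. The groups overlapped, KO had 82.6% of the CTRL mean, and the log2 fold change was -0.27 ± 0.13 (adjusted p-value 0.330, edgeR). Rbfox2 was 68.1 ± 8.78 CPM in CTRL and 58.9 ± 5.66 CPM in KO, and its log2 fold change of -0.21 ± 0.12 had the opposite sign to that at P14. Rbm20, at 327 ± 26.4 and 320 ± 31.1 CPM, and Rbm24, at 270 ± 30.1 and 272 ± 5.76 CPM, had log2 fold changes of -0.03 ± 0.10 and 0.02 ± 0.10.

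**Figure D2:**
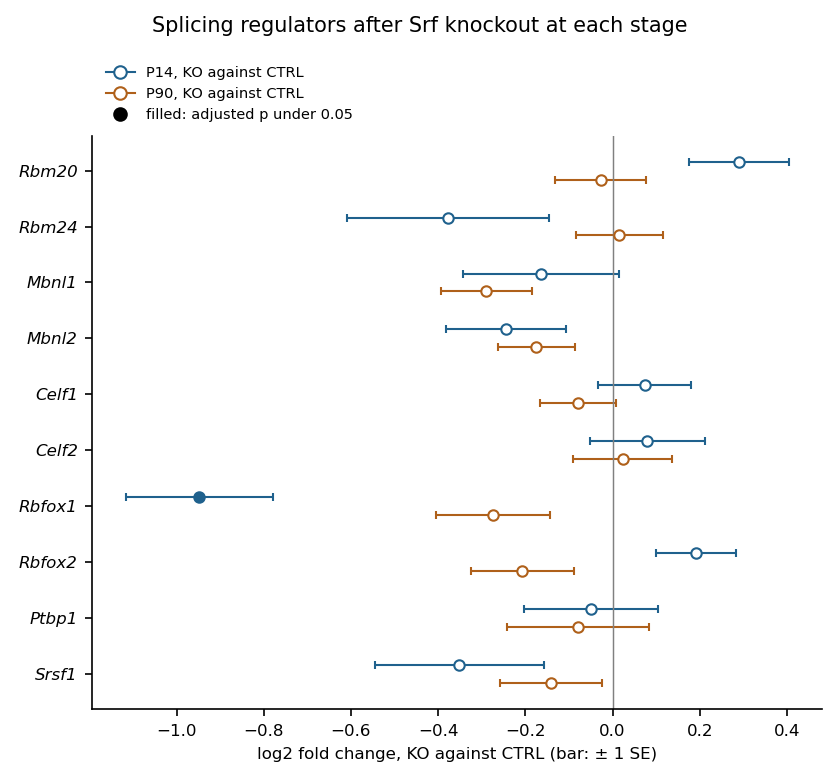
Log2 fold change of KO against CTRL for each regulator at P14 (blue) and P90 (orange), with bars of 1 SE on either side. Filled points have an adjusted p-value under 0.05, which Rbfox1 at P14 alone reached, at -0.95.

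Whether the response differed between stages was tested by the interaction of stage and genotype, that is, the P14 effect of KO minus the P90 effect. By edgeR 0 of 10 members passed, with 2 at an unadjusted p under 0.05 against 19% of all genes, and over all genes 228 of 12841 (1.78%) passed. Rbfox1 had the largest difference, -0.67 ± 0.22 (SE, log2), and its adjusted p-value was 0.119, so a stronger decrease at P14 than at P90 was not established by this test. DESeq2 gave -0.68 with an adjusted p-value of 0.0453, the only fit of 20 in which it passed, and the other fits gave adjusted p-values of up to 0.283. For Rbfox2 the difference was 0.41 ± 0.15 (adjusted p-value 0.155), and for Rbm20 it was 0.32 ± 0.15 (adjusted p-value 0.275). Rbfox1 and Rbfox2 thus had differences of opposite sign, neither past the threshold by edgeR.

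Ratios were taken within pairs of members, which are paralogs in each pair other than that of Rbm24 and Rbm20. Such ratios compare members inside each sample and do not depend on library scaling. They can still carry an effect of exon length that differs between samples, which was not tested for ratios. Exons make up 5481 bases of Rbfox1 and 7358 of Rbfox2, and 3224 of Rbm24 and 6592 of Rbm20. For Mbnl1 and Mbnl2 they make up 5809 and 4553 bases. The ratio of Rbfox1 to Rbfox2, per kilobase of exon, had a log2 value of -1.32 ± 0.23 (SD, n = 3) in P14 CTRL and -2.46 ± 0.18 in P14 KO. Rbfox2 RNA was therefore 2.49 times Rbfox1 RNA in P14 CTRL and 5.49 times in P14 KO, and the log2 ratios, -1.47 to -1.05 and -2.59 to -2.25, did not overlap. At P90 Rbfox2 was 1.89 times Rbfox1 in CTRL and 1.99 times in KO. The ratio of Mbnl1 to Mbnl2 separated the stages instead, with Mbnl2 at 2.26 and 2.12 times Mbnl1 in P14 CTRL and KO and 1.47 and 1.60 times at P90. All P14 samples had log2 ratios of at most -0.87 and all P90 samples of at least -0.76. Celf1 stayed at 1.88 to 2.01 times Celf2 in the means of the 4 groups. Rbm24 was 1.92 times Rbm20 in P14 CTRL and 1.26 times in P14 KO, with log2 values of 0.48 to 1.62 and 0.23 to 0.43, and 1.68 and 1.74 times in P90 CTRL and KO. The log2 difference of this ratio between P14 KO and CTRL was -0.60 and became -0.27 without P14 CTRL replicate 2, the library with the highest Rbm24 level. For Rbfox1 over Rbfox2 and for Rbm24 over Rbm20, the P14 KO samples were thus below the samples of all 3 other groups without overlap. For Rbm24 over Rbm20 the gap was narrow, from 0.43 in P14 KO to 0.48 in P14 CTRL. How often ratios of other gene pairs separate in this way was not computed. Of single genes tested, 32.7% did not overlap between P14 KO and P14 CTRL. No p-value was computed for ratios.

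**Figure D3:**
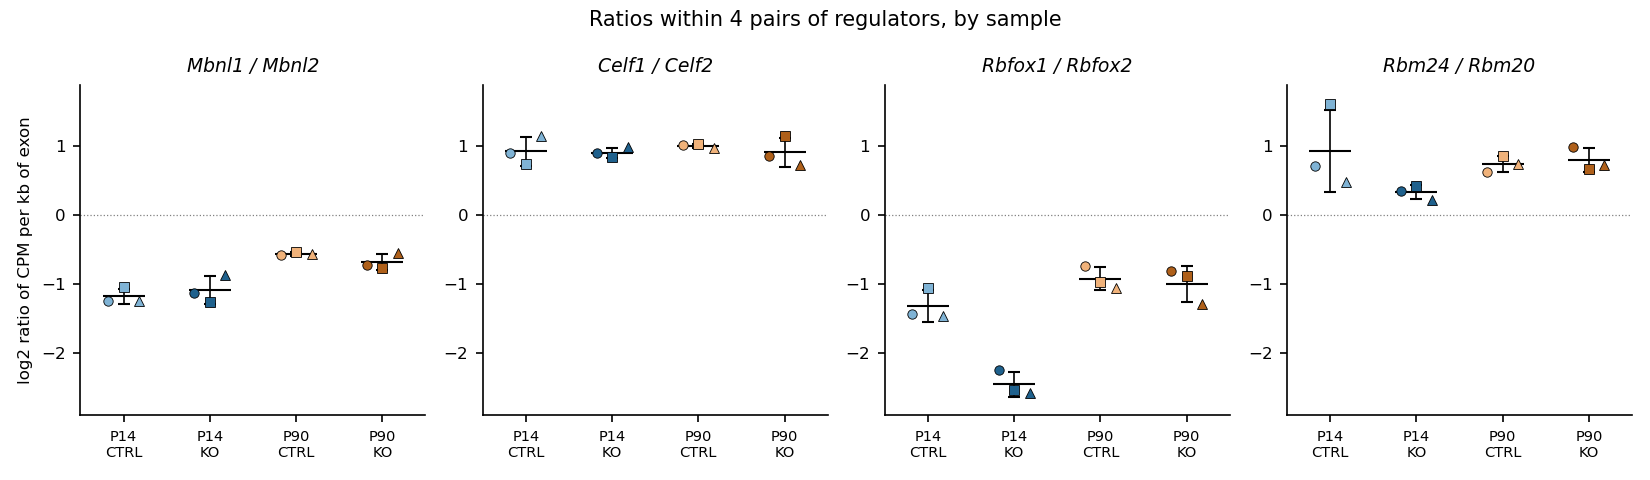
Log2 ratio of CPM per kilobase of exon within 4 pairs of regulators, for every sample, with replicates 1, 2 and 3 as circles, squares and triangles and lines for the mean ± SD of 3 samples. P14 KO lies lowest for Rbfox1 over Rbfox2, at a mean of -2.46, and both P90 groups lie above both P14 groups for Mbnl1 over Mbnl2.

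Levels were then compared between stages, in CTRL and in KO separately, as the tables allow. In P90 CTRL against P14 CTRL, Mbnl1 was higher and was the only member past the threshold, whereas 29.3% of all 12294 genes tested passed. Mbnl1 measured 168, 234 and 146 CPM in P14 CTRL and 267, 292 and 264 CPM in P90 CTRL, without overlap. The log2 difference was 0.59 ± 0.16, or 1.51-fold (adjusted p-value 0.0263, edgeR), which rose to between 0.0577 and 0.0904 when P14 CTRL replicate 1 or 3 or any P90 CTRL replicate was left out.

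Ptbp1, at 22.9, 17.4 and 17.3 CPM in P14 CTRL and 13.1, 13.9 and 14.2 CPM in P90 CTRL, did not overlap between stages and had a log2 difference of -0.48 ± 0.16 with an adjusted p-value of 0.0519. Without P14 CTRL replicate 2 it passed, at 0.0242, as did Rbfox1, at 0.0237. With all samples Rbfox1 was 0.38 ± 0.15 higher at P90 on the log2 scale (adjusted p-value 0.0822). PTBP1 is made in many cell types, and of the markers of other cell types 5 of 7 tested for fibroblasts and 6 of 8 for endothelial cells were lower in P90 CTRL, while their part in the Ptbp1 values was not tested. Celf1 and Celf2 were 0.18 ± 0.10 and 0.27 ± 0.12 lower on the log2 scale without overlap between stages, and neither passed. The share of genes without overlap was 4 of 10 for the members and 44.9% for all genes.

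In P90 KO against P14 KO, 7 of the 10 members passed by edgeR, where 56.8% of all 12417 genes tested did. Rbfox1 and Mbnl1 were higher at P90, as were 27.7% of all genes, and Rbm20, Celf1, Celf2, Rbfox2 and Ptbp1 were lower, as were 29.1%. Rbfox1 rose from 9.75 to 12.6 CPM at P14 to 19.7 to 25.1 CPM at P90, a log2 difference of 1.05 ± 0.15 (2.07-fold), with an adjusted p-value of 0.000307, and it passed in all 14 fits run. Mbnl1 rose from 148 to 178 CPM to 201 to 250 CPM, a log2 difference of 0.46 ± 0.11 with an adjusted p-value of 0.00613, and lost the call with total counts in place of TMM factors (0.17, adjusted p-value 0.252).

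The isolation-induced genes summed to 694 to 1170 CPM in P14 KO, below the sums in P90 KO, with 8 of 10 called higher at P90, and their part in these differences was not tested.

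The decreases between the KO groups depended on the treatment of gene length, other than that of Ptbp1. Rbm20 fell from 448 ± 38.2 to 320 ± 31.1 CPM, a log2 difference of -0.48 ± 0.11 with an adjusted p-value of 0.00416. Rbfox2 fell from 78.5 ± 1.68 to 58.9 ± 5.66 CPM, by 0.41 ± 0.09 on the log2 scale. When an offset fitted to exon length in each sample was added, the Rbm20 difference became -0.18 (adjusted p-value 0.0678) and the Rbfox2 difference -0.05 (adjusted p-value 0.668). Celf1, with 7965 bases of exon, went from -0.34 ± 0.09 to 0.07, and Celf2, with 9517 bases, from -0.33 ± 0.12 to 0.17, so both lost the call and changed sign. The exons of Celf2 are the longest of the members. Ptbp1, with the shortest at 2933 bases, stayed at -0.52 with and without the offset. Its adjusted p-value of 0.0222 rose to between 0.0555 and 0.0699 without P14 KO replicate 1 or 2 or P90 KO replicate 1. Of the markers tested, 4 of 7 for fibroblasts and 5 of 8 for endothelial cells were lower in P90 KO. The part of these markers in the Ptbp1 difference was not tested. The calls for Celf2, at an adjusted p-value of 0.0355, were also lost without P14 KO replicate 1 or 3 or P90 KO replicate 1 or 2, with values of up to 0.169. Differences between the stage comparisons in CTRL and in KO are those tested by the interaction above, in which 0 members passed by edgeR.

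**Figure D4:**
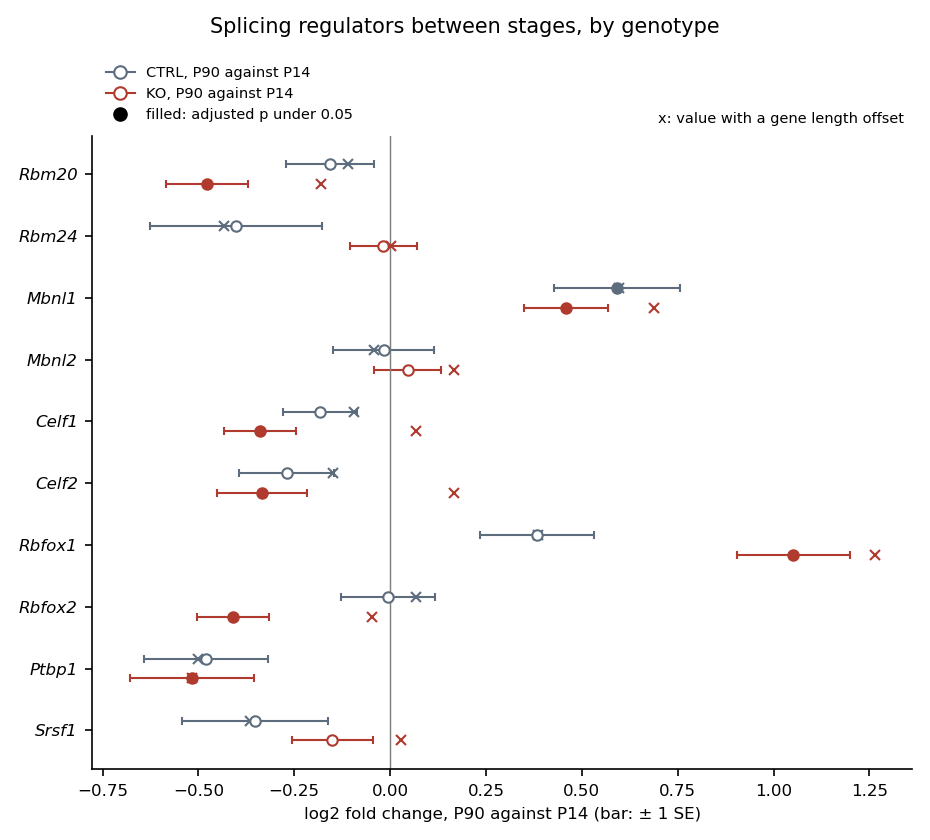
Log2 difference of P90 against P14 for each regulator in CTRL (grey) and KO (red), with bars of 1 SE on either side and filled points for an adjusted p-value under 0.05. Crosses give the value with an offset for gene length, which moves Celf1 and Celf2 in KO from -0.34 and -0.33 to 0.07 and 0.17 and leaves Rbfox1 above 1.

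Other genes of the splicing machinery were described from lists, beginning with 47 relatives of the members and other tissue-specific regulators. In P14 KO, 3 of 38 tested were down-regulated and 0 up-regulated, a share of 7.89% against 8.59% over all genes. Rbpms, which encodes an RNA-binding regulator of muscle splicing, measured 309, 369 and 245 CPM in CTRL and 192, 179 and 140 CPM in KO, without overlap. Its log2 fold change was -0.86 ± 0.18 (adjusted p-value 0.0253, edgeR), and the call was lost without P14 CTRL replicate 1 or any P14 KO replicate, with values of up to 0.104. Rbpms is also made in smooth muscle. Of the 8 markers of smooth muscle and pericytes, Acta2 was called lower and Cspg4 higher in P14 KO, with a median log2 fold change of -0.16, and their part in the Rbpms result was not tested. Its paralog Rbpms2 fell from 65.8 ± 4.88 to 38.4 ± 0.81 CPM, a log2 fold change of -0.78 ± 0.10 with an adjusted p-value of 0.00841, which became 0.0535 without P14 KO replicate 2. Raver2, which encodes a partner of PTBP1, fell from 4.31 ± 0.66 to 2.16 ± 0.22 CPM with an adjusted p-value of 0.0479, a call lost in 10 of 14 other fits.

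At P90 none of the 37 relatives tested passed by edgeR, with 5 at an unadjusted p under 0.05 and 1 called by DESeq2. Rbpms measured 216.8 ± 18.2 CPM in KO and 296 ± 11.1 CPM in CTRL there, a log2 fold change of -0.44 ± 0.10 with an adjusted p-value of 0.0723. The summed smooth muscle and pericyte markers were also lower in P90 KO without overlap, at 200.4 to 210 CPM against 276 to 420 CPM. Their median log2 fold change was 0.10 with 0 of 8 called, and their part in the Rbpms value was not tested. Rbpms2 measured 48.98 ± 5.30 and 50.1 ± 3.29 CPM. The interaction passed for Rbpms2, at -0.75 ± 0.14 with an adjusted p-value of 0.0262, and was lost in 10 of 19 other fits, 8 of which left out a single sample. The decrease of Rbpms2 was thus larger at P14 than at P90 by this test.

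The kinases that phosphorylate SR proteins, listed with the SR importer gene Tnpo3, included 1 gene with an increase. Srpk3, a kinase made mainly in heart and skeletal muscle, measured 123, 121 and 131 CPM in P14 CTRL and 202, 228 and 232 CPM in P14 KO. Every KO sample was above every CTRL sample, the log2 fold change was 0.82 ± 0.10 (adjusted p-value 0.00732, edgeR), and the call held in all 14 other fits. At P90 it measured 109 ± 7.23 CPM in CTRL and 122 ± 6.97 CPM in KO, with a log2 fold change of 0.16 ± 0.09 and an adjusted p-value of 0.436. Its interaction was 0.67 ± 0.13 with an adjusted p-value of 0.0269, a call that was lost when P14 KO replicate 2 or 3, P90 CTRL replicate 1 or 3, or P90 KO replicate 1 or 2 was left out, at up to 0.0928. None of the other 9 genes of this list passed in the P14 comparison.

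The SR list held SR-related genes as well as SR proteins, among them Srrm2, Pnn and Son. The core spliceosome list also held accessory factors, among them Ddx5 and Ddx17. Of 16 SR and SR-related genes, 21 heterogeneous nuclear ribonucleoproteins (hnRNPs) and 56 genes of the core spliceosome list tested at each stage, 0 passed by edgeR. Over all genes, 8.59% passed at P14 and 0.39% at P90. At P14 the numbers with an unadjusted p under 0.05 were 0, 2 and 7, against 25.6% of all genes, and DESeq2 called 0 in each list. At P90 these numbers were 2, 0 and 5, against 16.2% of all genes, and DESeq2 called 1 gene of the SR list and none of the other genes. Median log2 fold changes were -0.03, 0.05 and 0.02 at P14 and 0.05, 0.03 and 0.10 at P90.

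**Figure D5:**
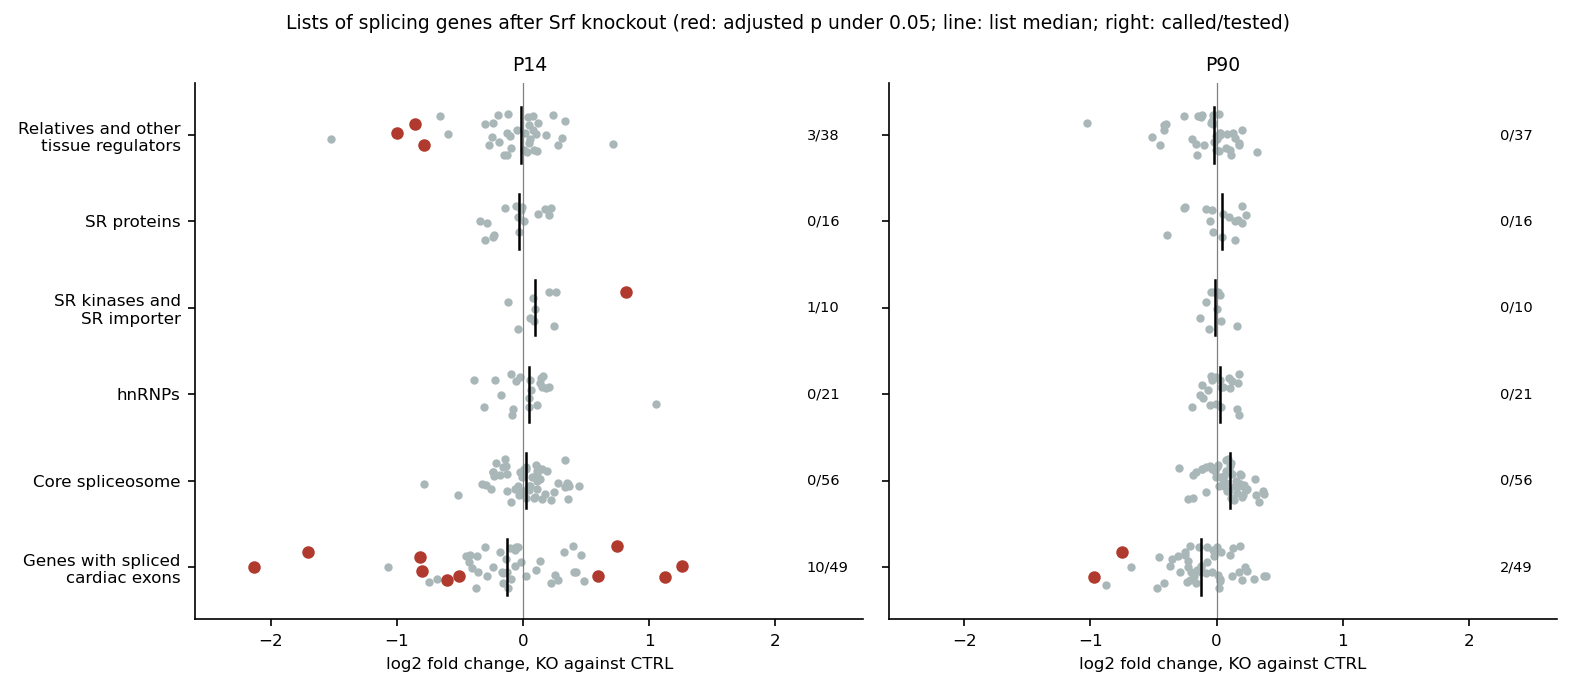
Log2 fold change of KO against CTRL for each gene of 6 lists at P14 and P90, with red points for an adjusted p-value under 0.05, black lines for list medians and the number called over the number tested at the right. Vertical placement within a list is arbitrary. Calls at P14 lie among the relatives, the SR kinases (Srpk3) and the genes with spliced cardiac exons, and at P90 among the last of these alone.

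The last list, called genes with spliced cardiac exons for short, held 50 genes. Their exons are known to be spliced by RBM20 or other regulators in heart or skeletal muscle. Here too only the amount of RNA was measured. In P14 KO, 10 of 49 tested passed, 4 up-regulated and 6 down-regulated (20.4% against 8.59% of all genes). This count fell to 2 to 4 when any P14 KO replicate was left out. The list was chosen with earlier results of these data known, so the 2 shares are not an independent comparison. Rtn4, which encodes a shaper of the endoplasmic reticulum, rose from 57.4, 62.8 and 53.9 CPM in CTRL to 116, 139 and 164 CPM in KO (log2 fold change 1.26 ± 0.14, adjusted p-value 0.00548). Pam, for an enzyme that amidates secreted peptides, rose from 139 ± 23.6 to 305 ± 24.2 CPM (1.13 ± 0.14, adjusted p-value 0.00713). Clcn1, the skeletal muscle chloride channel whose missplicing gives myotonia, fell from 6.18 ± 0.68 to 1.41 ± 0.54 CPM (-2.14 ± 0.31, adjusted p-value 0.0114, and 0.0599 without P14 KO replicate 2).

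At P90, 2 of 49 passed, Kcnip2 and Slc8a1. Kcnip2, a subunit of the channel for the transient outward potassium current, measured 106, 98.4 and 93.5 CPM in CTRL and 50.8, 50.5 and 49.6 CPM in KO, a log2 fold change of -0.98 ± 0.09 with an adjusted p-value of 0.00225. It was also down-regulated at P14, from 58.1 ± 5.95 to 17.9 ± 8.90 CPM, with a log2 fold change of -1.71 ± 0.34 and an adjusted p-value of 0.0227, which rose above the threshold without P14 CTRL replicate 1 or P14 KO replicate 2, to 0.0561 and 0.0892. At P14 Slc8a1, the sodium-calcium exchanger, measured 232, 257 and 226 CPM in CTRL and 193, 153 and 187 CPM in KO, lower in KO without overlap, with a log2 fold change of -0.43 ± 0.13 and an adjusted p-value of 0.0743. It fell from 200.1 ± 13.5 to 118 ± 3.88 CPM at P90 (-0.75 ± 0.09, adjusted p-value 0.00755), and the call was lost with the offset for gene length (-0.30, adjusted p-value 0.334) and without P90 KO replicate 2 (0.0695). The Kcnip2 call at P90 was lost in the fit of all 12 samples, at an adjusted p-value of 0.214. The interaction passed for 4 genes of the list, among them Rtn4 at 1.16 ± 0.20, Clcn1 at -1.65 ± 0.31 and Pam at 0.95 ± 0.19. The fourth, given although the naming rule did not select it, was the calcium channel gene Cacna1c at 0.85 ± 0.18. Rtn4, Clcn1 and Pam each lost the call in some fits without a single sample, with adjusted p-values of up to 0.0928, and without P90 KO replicate 2 or P90 CTRL replicate 3 none of the 4 remained past the threshold.

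Between stages in CTRL, more genes were called lower than higher at P90 in each list other than that of genes with spliced cardiac exons. In that list 8 were higher and 6 lower of 49. Over all genes tested, 14.9% were called lower and 14.5% higher. At P90, 7 of 16 genes of the SR list were lower and 0 higher. Among them the SR-related gene Srrm2 fell from 255 ± 5.06 to 149 ± 3.73 CPM (log2 difference -0.78 ± 0.10, adjusted p-value 0.000798). Of the core spliceosome list 12 were lower and 1 higher, and of the hnRNPs 3 of 21 were lower. Ddx17, for an accessory helicase, fell from 58.5 ± 10.4 to 14.5 ± 1.68 CPM (-2.02 ± 0.16, adjusted p-value 9.87e-05). Relatives numbered 12 lower and 3 higher of 39, and Srrm4, for an activator of small exons, rose from 10.1 ± 1.67 to 38.1 ± 3.33 CPM (1.91 ± 0.16, adjusted p-value 0.000124). When 1 CTRL sample was left out at a time, 3 to 8 genes of the SR list and 6 to 17 of the core spliceosome list were called. For hnRNPs the range was 1 to 4, for relatives 10 to 15 and for genes with spliced cardiac exons 7 to 17. Counts of these lists with the offset for gene length are not given here. In KO the same comparison gave 8 lower and 0 higher genes of the SR list, 11 lower and 1 higher hnRNPs and 16 lower and 9 higher genes of the core spliceosome list. These were 50%, 57.1% and 44.6% of the genes tested in each list, against 56.8% of all genes, and of the genes with spliced cardiac exons 12 were higher and 11 lower. Ddx17 fell there from 63.8 ± 4.17 to 14.0 ± 1.27 CPM and Srrm4 rose from 6.74 ± 0.91 to 34.3 ± 3.80 CPM. The shares called in CTRL ranged from 10% of SR kinases to 43.8% of the SR list, against 29.3% of all genes.

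How the members varied together was described by Pearson correlations of log2 CPM, with no test since the samples share their stage and library. Over the 12 samples the highest value was 0.89 between Rbm20 and Celf1 and the lowest -0.85 between Rbm20 and Rbfox1. After the mean of each group was taken off, Rbm24 went with Mbnl2 (0.95), Mbnl1 (0.85) and Srsf1 (0.74), and Rbm20 with Celf1 (0.75), while Rbm20 and Rbfox1 were at -0.37. P14 CTRL replicate 2 was the highest of its group for 7 of the 10 members, among them Rbm24, Mbnl1, Mbnl2 and Srsf1, and for 39.0% of all genes kept. P14 KO replicate 1 and P90 KO replicate 3 were each the highest of their group for 7 members as well. These libraries were the highest for 31.0% and 35.1% of all genes kept. P90 CTRL replicate 2 was the highest for 6 members and for 36.8% of all genes kept. Among 12841 genes, those most like Rbfox1 over the 12 samples were 1110002N22Rik (0.99), Ecsit (0.99) and Rhot2 (0.98), and those most like Mbnl1 were Tmem106b (0.96), Thap1 (0.96) and Gm20300 (0.95).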

How the data were processed

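CMs sorted by FACS were sequenced from 10 ng of total RNA each (SMART-Seq v4 and Nextera XT, single-end). The authors aligned reads to mm10 with STAR 2.5.3a and counted them per gene with featureCounts (Subread 1.5.2), and deposited raw counts in a neonatal and an adult table, with base calls by CASAVA 1.8 per the labels. Strand and multimapping settings are not given in the sources used here. No library of another study was in the tables (0 columns). Both tables held 23337 symbols and were joined by symbol. Groups came from sample titles.

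Counts were tested with edgeR 4.0.16 in R 4.3.3 (quasi-likelihood F-test, TMM, filterByExpr with a minimum count of 10), adjusted by Benjamini and Hochberg over all genes tested, at a threshold of 0.05. Each comparison used its own 6 samples, and the interaction all 12. Alternatives were DESeq2 1.42.0, its size factors, total counts, no filter, an offset fitted to exon length per sample, the replicate block, 1 fit of all samples, and leaving out each sample. The edgeR fits, with and without the replicate block and the offset, were run on simulated counts with known group changes. These counts held no length trend and no replicate effect, so they cannot show whether the offset or the block removes such effects. The other steps were not run on simulated counts. Named genes of a list were the 3 with the smallest adjusted p-value among those called. The members, lists and tests were chosen with earlier results of these data known. Motif and CpG searches used RefSeq windows.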

Additional observations from a re-analysis of the deposited data

How the results depend on the processing

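Without TMM factors the median log2 fold change of all genes was 0.22 in P14 KO against CTRL, 0.17 in the interaction, -0.13 between stages in CTRL and -0.32 in KO, against 0.0011, -0.0051, -0.012 and -0.030 with them. This moved the split of higher against lower calls from 501 and 577 to 1405 and 319, from 105 and 123 to 199 and 60, from 1779 and 1828 to 1314 and 2368, and from 3437 and 3615 to 2001 and 5560. Members called became 3 in P14 KO and 3 between stages in CTRL. Signs turned in P14 KO for Mbnl1 (0.063) and Ptbp1 (0.16), in P90 KO for Rbm20 (0.0056) and Rbpms2 (0.0032), in the interaction for Mbnl2 (0.12) and Srf (0.10), and between KO stages for Mbnl2 (-0.24). With the offset for gene length, members called became 2 between stages in CTRL and 3 in KO, and signs turned in P14 KO for Celf1 (-0.038) and Celf2 (-0.051), in P90 KO for Rbm20 (0.13) and Celf1 (0.13), in the interaction for Mbnl1 (-0.085), Celf1 (-0.16) and Celf2 (-0.31), between CTRL stages for Rbfox2 (0.067), and between KO stages for Rbm24 (0.0023), Celf1 (0.069), Celf2 (0.17) and Srsf1 (0.028). With the offset and the replicate block together these values were, in the same order, -0.036, -0.031, 0.13, 0.13, -0.045, -0.15, -0.29, 0.060, 0.0041, 0.067, 0.16 and 0.034, and 3 members were called between KO stages. DESeq2 called 1 member in the interaction and turned the sign of Rbfox2 between CTRL stages (0.0014) and Rbm24 between KO stages (0.0090), as did no filter for the latter (0.0046). The cause of these changes was not tested beyond what each setting alters.

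Over all genes, the number called in P14 KO was 1724 with total counts, 1798 by DESeq2 and 2088 with all 12 samples fitted together. In P90 KO it was 701 without a filter, 312 by DESeq2, 655 with the replicate block, 84 with the offset for gene length, 200 with offset and block, and 3 with all 12 samples. In the interaction it was 474 without a filter, 897 by DESeq2, 687 with the replicate block and 150 with the offset. With the replicate block 1529 genes were called in P14 KO. Deviations from group means of samples with the same replicate number had correlations of 0.05, 0.15 and 0.36 at P14. At P90 these were 0.18, -0.00034 and 0.05. Samples with unlike numbers had correlations from -0.24 to 0.15 at P14 and from -0.25 to 0.17 at P90. The numbers were not taken to pair samples, since the methods describe no pairing and these values do not decide it.

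When 1 sample was left out at a time, members called ranged from 0 to 1 in P14 KO and from 0 to 3 between stages in CTRL, and all genes called from 111 to 1004 in P14 KO, 6 to 51 in P90 KO, 4 to 377 in the interaction and 2067 to 4768 between stages in CTRL. Log2 fold changes that turned sign ranged in P14 KO from -0.30 to 0.056 for Mbnl1, -0.027 to 0.19 for Celf2 and -0.12 to 0.090 for Ptbp1. In P90 KO they ranged from -0.092 to 0.048 for Rbm20, -0.049 to 0.10 for Rbm24, -0.096 to 0.12 for Celf2, -0.18 to 0.077 for Ptbp1 and -0.11 to 0.055 for Rbpms2. In the interaction they ranged from -0.15 to 0.081 for Mbnl2, -0.024 to 0.18 for Celf2, -0.11 to 0.18 for Ptbp1, -0.31 to 0.062 for Srsf1 and -0.37 to 0.29 for Srf. Between stages they ranged in CTRL from -0.12 to 0.099 for Mbnl2 and -0.10 to 0.053 for Rbfox2, and in KO from -0.044 to 0.041 for Rbm24. Of 730 values of the members under alternatives, 640 kept direction and side of the threshold, 60 changed sign, 19 lost a call and 11 gained one.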
